A study of Mus musculus with 4 samples.

Results

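The genes of the major histocompatibility complex (MHC) and of antigen presentation were examined in the subcutaneous white fat, the depot beneath the skin, of C57BL/6 mice aged 8 weeks. The set was defined by name: every gene of the table whose symbol begins with H2-, the mouse MHC prefix, together with B2m, Cd74, Ciita, Nlrc5, Tap1, Tap2, Tapbp, Cd40, Cd80 and Cd86. It holds 55 of the 51912 genes measured, of which 36 belong to class I, 12 to class II and 3 to costimulation, and 4 are other genes or pseudogenes of the locus. The 2 groups were mice given BML-260, which inhibits the phosphatase DUSP22 (also JSP-1), and mice given its vehicle, dimethyl sulfoxide (DMSO). Each group had 2 RNA sequencing libraries, called A and B, and strain, age and tissue were shared. The series describes 8 mice, 4 per treatment, but not how they were divided over the 4 libraries, so every p-value here measures the spread between libraries.

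MHC class I molecules consist of a heavy chain and beta-2-microglobulin and are made by nearly all nucleated cells, which use them to show fragments of their own proteins to cytotoxic T cells. MHC class II molecules consist of an alpha and a beta chain and are made mainly by dendritic cells, macrophages and B cells, which use them to show captured antigen to helper T cells. Class II transcription depends on the coactivator CIITA and class I transcription is raised by its relative NLRC5. In adipose tissue, resident macrophages are a known source of class II, and adipocytes themselves can make it.

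The promoters are shown first, because NLRC5 and CIITA are known to act through related motifs there. Promoter windows from 250 bases before to 50 bases after the transcript start were found in RefSeq (GRCm38.p6) for 36 of the 55 genes. Class II promoters are known for an X box followed by a Y box, and the 5 below hold GCAAC (the core of the X box) with ATTGG (the Y box, an inverted CCAAT) starting 30 to 33 bases after it. Capitals mark the 2 motifs, and each sequence reads 5′ to 3′ along the strand of its gene.
H2-Aa: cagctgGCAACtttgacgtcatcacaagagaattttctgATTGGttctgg
H2-Eb1: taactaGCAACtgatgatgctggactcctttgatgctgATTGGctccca
H2-Eb2: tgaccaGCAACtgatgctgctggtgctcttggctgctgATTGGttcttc
H2-Oa: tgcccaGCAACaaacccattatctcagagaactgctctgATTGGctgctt
H2-Ob: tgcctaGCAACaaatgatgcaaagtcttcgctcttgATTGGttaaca

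These lie at chr17:34287861-34287910 (minus strand), chr17:34305770-34305818, chr17:34325537-34325585, chr17:34092297-34092346 and chr17:34238812-34238858 (all plus strand), in the order printed. These are 5 of the 8 class II genes with a promoter window, and 0.201% of all 32851 promoter windows, searched on both strands, held the pair. H2-DMa, H2-DMb1 and H2-DMb2 have a window without it, and H2-Ab1, Cd74, Ciita and H2-Ea-ps have no window. A second pair was TGACG followed by ATTGG starting 24 or 25 bases later, held by 5 of the 26 class I genes with a window and 0.131% of all windows. The spacings of both pairs were chosen after these promoters had been read, so the counts describe the windows. They compare no classes, and no enrichment over all windows is read from them. H2-Aa, of class II, holds the second pair of motifs too, 26 bases apart. The second pair at 24 or 25 bases is shown for the 3 most abundant members by CPM and for H2-Q7, again with the motifs in capitals.
H2-K1: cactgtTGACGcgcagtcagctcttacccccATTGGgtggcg
H2-D1: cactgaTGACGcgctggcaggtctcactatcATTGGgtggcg
B2m: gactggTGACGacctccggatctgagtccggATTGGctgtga
H2-Q7: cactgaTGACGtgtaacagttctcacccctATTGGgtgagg

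Their positions are chr17:34000353-34000394 (minus strand), chr17:35262987-35263028, chr2:122147603-122147644 and chr17:35439085-35439125 (plus strand). H2-M3 was the fifth gene with this pair. A match describes the letters of a window and does not show that a factor binds there.

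Estimated reads per library ran from 19999836 in BML-260 A to 23726781 in BML-260 B, and 15643 genes had enough of them to be tested. All 45 H2- genes lie on chromosome 17 between positions 33974659 and 37483552 of GRCm38, and the class II genes among them between 34092340 and 34344645. Adipocyte markers were abundant in all 4 libraries, with Adipoq between 1662 and 3022 CPM (reads scaled to library size, with edgeR's TMM factors). BML-260 A stood apart in lymphoid transcripts: 10 B cell markers summed to 212 CPM there, against 1.95 and 2.85 in vehicle A and B and 3.64 in BML-260 B. Each of the 10 lay between 5.10 and 38.1 CPM in BML-260 A but reached at most 0.911 CPM elsewhere, and 3 of them were at 0 in vehicle A. The 10 T cell markers summed to 134 CPM in BML-260 A and to 7.88, 21.96 and 11.5 in vehicle A, vehicle B and BML-260 B. Glycam1, a gene of lymph node high endothelial venules that is also made by mammary epithelium, was at 8.23 CPM in BML-260 A and had 0 reads in the other libraries. Of the other lymph node stroma markers, Ccl21a and Ccl19 were also highest in BML-260 A, at 56.7 and 12.8 CPM, against at most 10.6 and 2.77 elsewhere. Cxcl13 and Madcam1 were not, at 10.26 and 0.337 CPM in BML-260 A beside 10.33 and 0.389 in vehicle B. Skeletal muscle transcripts were another difference, with 8 markers summing to 285 and 8315 CPM in the vehicle libraries and to 23565 and 36702 CPM in the BML-260 libraries. The 6 adipocyte markers summed to 18368 and 17489 CPM with vehicle and to 12527 and 17053 CPM with BML-260. The muscle sum thus exceeded the adipocyte sum in both BML-260 libraries and in neither vehicle library.

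By edgeR's quasi-likelihood test of BML-260 against vehicle, 0 members had an adjusted p below 0.05, as did 0.00639% of all tested genes. Of the 55 members 34 were tested, and 1 (H2-Ob) was higher and 1 (H2-T23) lower at p below 0.05 before adjustment, beside 7.45% and 3.61% of all tested genes. DESeq2 called 0 members and 2.6% of all tested genes, limma-voom called 0 members and 0.00639% of all tested genes. The authors' deposited table lists 0 members with an adjusted p below 0.05, and 0.688% of its 51912 genes with such a value. The groups did not overlap in 8 members, 2 higher and 6 lower with BML-260, where 22.9% of all tested genes lay higher and 21.5% lower in this way. Over the tested members the median log2 fold change was -0.08, against 0.02 over all tested genes, and its sign depended on single libraries: leaving out BML-260 A gave -0.20, leaving out BML-260 B 0.14 and leaving out vehicle B 0.02.

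In summed level, class II differed more between libraries of the same treatment than between treatments. The antigen-binding chains H2-Aa, H2-Ab1 and H2-Eb1 and the invariant chain gene Cd74 stood at 0.497 to 0.518 times their vehicle means in BML-260 B and lay between the 2 vehicle libraries in BML-260 A. A different set, H2-Oa, H2-Ob, H2-DMb2 and H2-Eb2, stood at 11.3 to 21.98 times the vehicle mean in BML-260 A and at 0.222 to 1.24 times in BML-260 B. Over the 10 tested class II genes the median log2 fold change was -0.04, 5 being above and 5 below zero. It was -0.58 without BML-260 A, with 1 gene above zero, and 0.34 without BML-260 B, with 6 above. Of these 10 genes, 6 were highest in BML-260 A and 7 lowest in BML-260 B, beside 29.7% and 20.3% of all tested genes. In bulk tissue fewer cells of a type and less RNA per cell cannot be told apart.

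**Figure D1:**
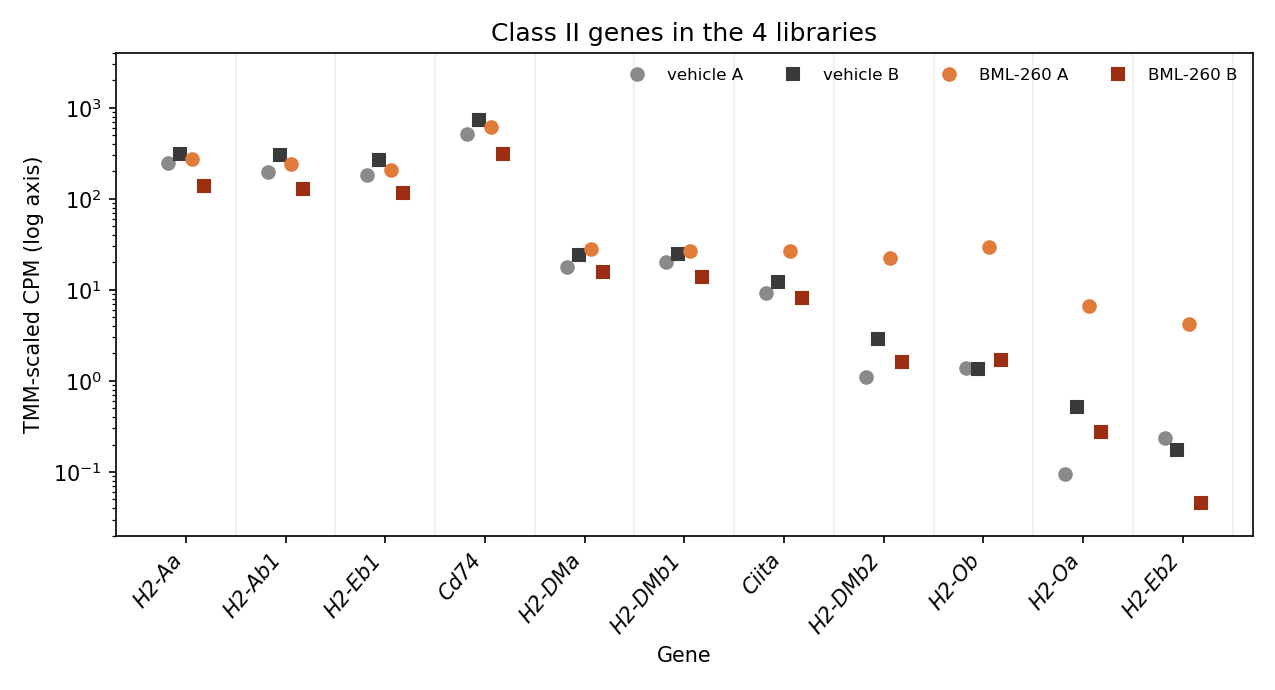
Levels of 11 class II genes on a log axis of TMM-scaled CPM, 1 point per library (circles for A, squares for B; grey for vehicle, orange and brown for BML-260). The 4 genes on the left are lowest in BML-260 B, while H2-DMb2, H2-Ob, H2-Oa and H2-Eb2 on the right are high in BML-260 A alone.

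H2-Aa and H2-Ab1 encode the alpha and beta chain of the I-A molecule. H2-Aa stood at 245 and 313 CPM in vehicle A and B, at 272 in BML-260 A but 139 in BML-260 B. H2-Ab1 stood at 199, 303, 239 and 130 CPM in the same order. BML-260 A thus lay inside the vehicle range for both genes, while BML-260 B stood 50.3% and 48.2% below the vehicle mean. Their log2 fold changes were -0.44 (SE 0.34, edgeR adjusted p = 0.664) and -0.44 (SE 0.35, edgeR adjusted p = 0.671).

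H2-Eb1, the beta chain of the I-E molecule, had 183 and 268 CPM with vehicle, 205 in BML-260 A but 116 in BML-260 B. Cd74, which encodes the invariant chain that guides class II molecules to the endosome, had 518, 733, 610 and 313 CPM in that order. Both followed the I-A chains, with log2 fold changes of -0.49 (SE 0.33) for H2-Eb1 and -0.44 (SE 0.37) for Cd74, and edgeR adjusted p of 0.619 and 0.694. The partner of H2-Eb1, the alpha chain listed as H2-Ea-ps, had 0 reads in every library, and is known to be inactive in C57BL/6 mice through a promoter deletion. The upper limit that a count of 0 allows, 3 reads, corresponds to 0.130 to 0.144 CPM per library.

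The 4 genes kept nearly the same proportions in every library. Per length, as deposited FPKM, Cd74 was 2.28 to 2.45 times H2-Ab1, H2-Aa 1.13 to 1.35 times and H2-Eb1 0.875 to 0.943 times. Their summed level was 1145 and 1616 CPM after vehicle, against 1326 and 697 CPM after BML-260, so the vehicle libraries differed 1.41-fold and the BML-260 libraries 1.90-fold. Without BML-260 A their log2 fold changes lay between -1.02 and -0.97, and without BML-260 B between -0.13 and -0.04. The 10 macrophage markers summed to 1654 and 1897 CPM with vehicle, 2423 in BML-260 A but 1245 in BML-260 B, and 8 of the 10 were lowest in BML-260 B. Dendritic cell markers summed to 172, 197, 190 and 137 CPM in the same order, but only 5 of the 10 were lowest in BML-260 B. Clec10a alone held 123, 146, 122 and 97.7 CPM of these sums. The part of macrophages and dendritic cells in the low class II levels of BML-260 B was not tested.

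H2-DMa and H2-DMb1 encode the chains of H2-DM, which exchanges the invariant chain fragment for antigenic peptide. H2-DMa was at 17.9, 23.9, 28.1 and 15.8 CPM in vehicle A, vehicle B, BML-260 A and BML-260 B, and H2-DMb1 at 20.1, 24.9, 26.9 and 13.7. Both were highest in BML-260 A and lowest in BML-260 B, with the vehicle libraries between. Their log2 fold changes of 0.07 (SE 0.31) and -0.15 (SE 0.33) were smaller than their errors, and both changed sign when a BML-260 library was left out, to -0.42 for H2-DMa without BML-260 A and to 0.25 for H2-DMb1 without BML-260 B. H2-DMa overlaps Brd2 on the opposite strand, and the strand setting of the counts was not given, so reads of the 2 genes may not be fully separated.

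The genes of H2-O, a modulator of H2-DM that is made chiefly by B cells, behaved differently. H2-Ob, its beta chain, had 1.38 and 1.34 CPM with vehicle, 29.9 in BML-260 A but 1.69 in BML-260 B, from 29, 31, 620 and 37 reads. H2-Oa, its alpha chain, had 2 and 12 reads with vehicle, 138 in BML-260 A but 6 in BML-260 B, or 0.0949, 0.519, 6.65 and 0.273 CPM. BML-260 A alone was high for both, and only for H2-Ob did BML-260 B also exceed both vehicle libraries.

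The log2 fold change of H2-Ob was 3.53 (SE 1.28, edgeR adjusted p = 0.430) and was 0.29 without BML-260 A. It passed the threshold only when genes with low counts were kept in the test (edgeR adjusted p = 0.0230), and its adjusted p ranged up to 0.886 over the alternatives. H2-Oa reached 3.44 as a log2 fold change (SE 1.52, edgeR adjusted p = 0.478), which became -0.20 without BML-260 A. These sizes depended on the method. Limma-voom gave 2.32 for H2-Ob and 2.40 for H2-Oa, and the authors' deposited log2 fold changes were 0.40 and 0.59. The cause of the smaller values was not tested. Set against the conventional chains per length, H2-Ob FPKM was 0.339% and 0.131% of H2-Ab1 with vehicle, 4.97% in BML-260 A but 0.596% in BML-260 B.

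H2-DMb2, a second H2-DM beta chain gene next to H2-DMb1, shared this form, at 1.09 and 2.85 CPM with vehicle, 22.3 in BML-260 A but 1.59 in BML-260 B. Its FPKM was 4.22% and 9.20% of that of H2-DMb1 with vehicle, 58.1% in BML-260 A but 17.7% in BML-260 B. Counts of both genes held fractions of reads, so some reads had been divided between genes. H2-Eb2, a further I-E beta chain gene, had 5, 4, 87 and 1 reads in the 4 libraries and did not have enough to be tested. The log2 fold change of H2-DMb2 was 2.59 (SE 1.21, edgeR adjusted p = 0.497), or -0.33 without BML-260 A. Limma-voom gave 1.68, and the authors' deposited log2 fold change was 0.33.

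These 4 genes summed to 2.80 and 4.88 CPM with vehicle, 63.0 in BML-260 A but 3.60 in BML-260 B. B cell markers in BML-260 A were 88.2 times their vehicle mean and these genes 16.4 times theirs, while in BML-260 B the multiples were 1.52 and 0.937. The part of B cells in these levels was not tested. Of the promoters printed above with the X and Y box pair, those of H2-Oa, H2-Ob and H2-Eb2 belong to genes high in BML-260 A. H2-Aa and H2-Eb1 hold the pair and were not high there, while H2-DMb2 was high and its window lacks the pair at this spacing. The part of these motifs in the levels was not tested.

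Ciita, the class II coactivator, stood at 9.16 and 12.2 CPM with vehicle, 26.4 in BML-260 A but 8.06 in BML-260 B. It was thus high in BML-260 A and slightly below both vehicle libraries in BML-260 B. Its log2 fold change was 0.69 (SE 0.55, edgeR adjusted p = 0.676), or -0.42 without BML-260 A. The conventional class II chains did not share the excess of BML-260 A: Ciita FPKM was 0.683% and 0.606% of H2-Ab1 with vehicle, 1.75% in BML-260 A but 0.929% in BML-260 B. Ciita overlaps Dexi on the opposite strand.

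**Figure D2:**
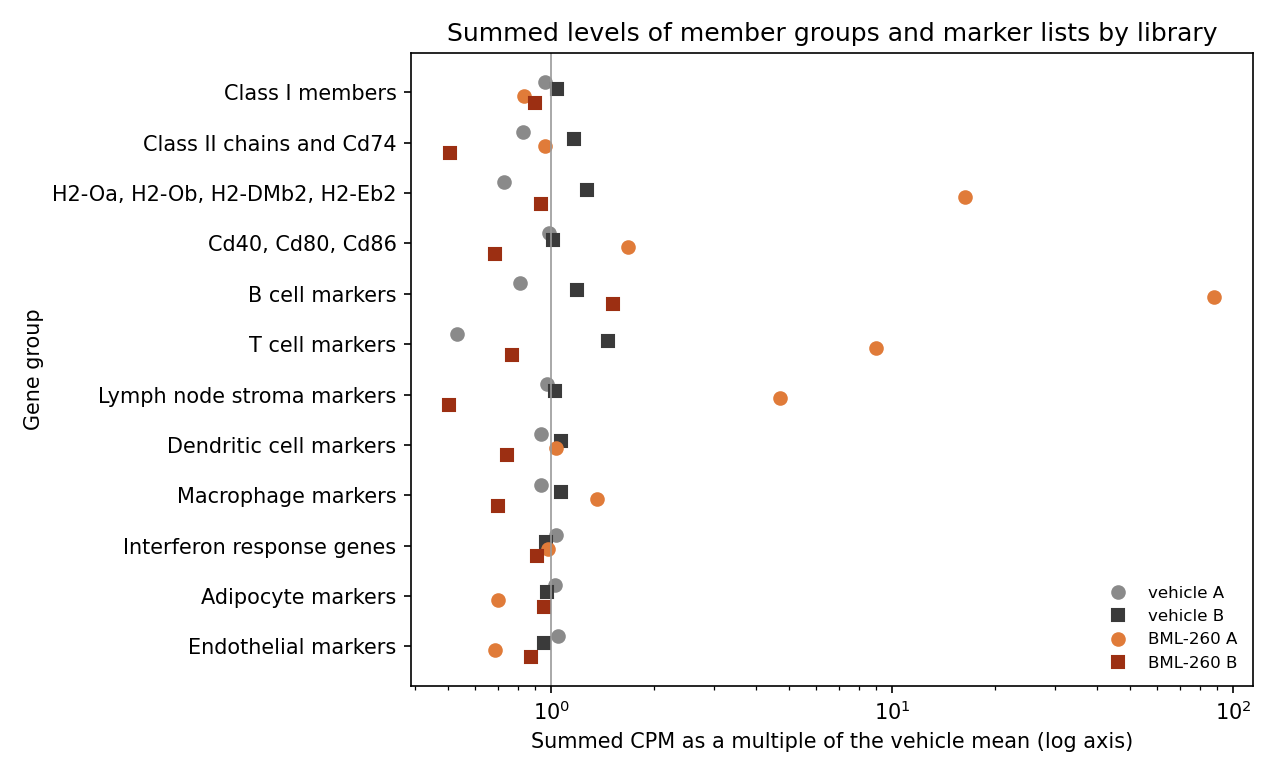
Summed CPM of 4 groups of members and 8 marker lists in each library, as a multiple of the vehicle mean on a log axis (circles for A, squares for B). The skeletal muscle list is not drawn. The group of H2-Oa, H2-Ob, H2-DMb2 and H2-Eb2 stands at 16.4 times the vehicle mean in BML-260 A, where B cell markers stand at 88.2, while class I lies between 0.833 and 1.04 in all 4 libraries.

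The costimulatory genes were also highest in BML-260 A. Cd40, the receptor through which helper T cells license B cells and dendritic cells, had 4.27 and 4.58 CPM with vehicle, 11.1 in BML-260 A but 4.01 in BML-260 B. Cd80, a ligand of CD28 and CTLA-4, had 1.04, 1.34, 3.18 and 1.05 CPM in that order. Cd86, the other such ligand, had 11.7, 11.5, 14.7 and 6.74 CPM. Cd40 and Cd80 were high in BML-260 A alone, whereas Cd86 was above the vehicle libraries in one BML-260 library and below them in the other.

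Log2 fold changes were 0.77 (SE 0.50) for Cd40, 0.82 (SE 0.60) for Cd80 and -0.11 (SE 0.38) for Cd86, with edgeR adjusted p between 0.608 and 0.932. Without BML-260 A they were -0.16, -0.20 and -0.80. B cell, T cell and macrophage marker sums were all highest in BML-260 A. The dendritic cell sum was highest in vehicle B, at 197 CPM beside 190 in BML-260 A. The part of these cell types in the costimulatory levels was not tested.

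In summed level, class I was far more abundant and varied less between libraries. H2-D1, H2-K1 and B2m ranked 26, 40 and 43 among all 51912 genes by mean CPM, which does not correct for length. H2-D1, B2m, H2-T22, H2-T23 and H2-Q4 were lower in both BML-260 libraries than in both vehicle libraries, by 5.60% to 23.7% of the mean, and Nlrc5 alone was higher in both. Those 5 of 20 tested class I genes compare with the background of 21.5% given above, so the share was near that of all genes. The median log2 fold change over the 20 was -0.08, with 8 above and 12 below zero, but it was 0.02 without BML-260 B (10 above zero) and -0.18 without vehicle A (3 above).

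**Figure D3:**
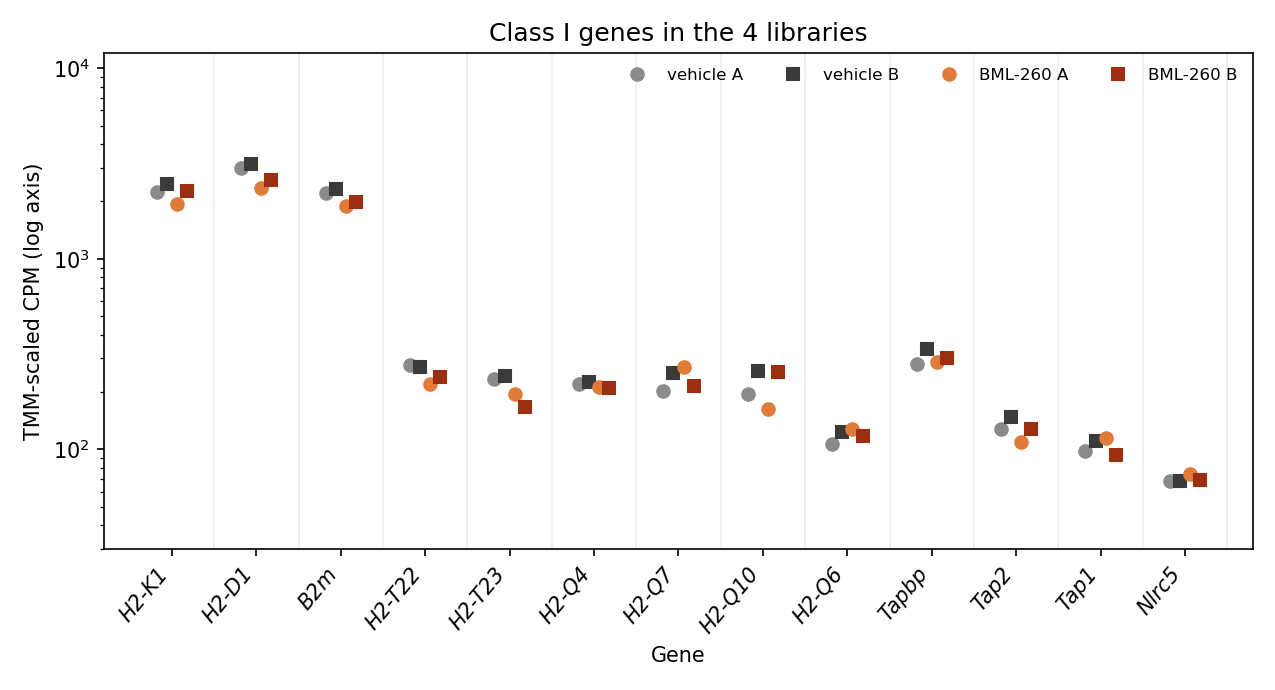
Levels of 13 class I genes on a log axis of TMM-scaled CPM, 1 point per library (circles for A, squares for B; grey for vehicle, orange and brown for BML-260). The 4 points of each gene lie close together, and H2-D1, B2m, H2-T22 and H2-T23 show both BML-260 libraries below both vehicle libraries.

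H2-K1 and H2-D1 are the classical class I heavy chain genes of this strain. H2-K1 stood at 2242 and 2480 CPM after vehicle, against 1946 and 2275 after BML-260, so the groups overlapped. H2-D1 stood at 2982 and 3150 CPM after vehicle, against 2350 and 2574 after BML-260, without overlap. The log2 fold changes were -0.16 (SE 0.23, edgeR adjusted p = 0.831) and -0.32 (SE 0.23, edgeR adjusted p = 0.641), with 95% confidence intervals from -0.75 to 0.43 and from -0.90 to 0.27.

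B2m, the light chain shared by all class I molecules, had 2205 and 2327 CPM after vehicle, against 1900 and 1975 after BML-260. Both BML-260 libraries were lower, by 14.5% on average. Its log2 fold change was -0.23 (SE 0.22, edgeR adjusted p = 0.730). Per length B2m was the most abundant member, with 3450 to 4147 FPKM, and lay at 1.03 to 1.13 times the sum of H2-K1 and H2-D1. The adipocyte and endothelial marker sums were also lower in both BML-260 libraries. They stood at 0.699 and 0.951 and at 0.686 and 0.873 times their vehicle means, beside 0.833 and 0.896 for summed class I. Of single markers, 4 of the 6 adipocyte and 4 of the 5 endothelial genes were lower without overlap, beside 21.5% of all tested genes. The skeletal muscle sum lay the other way, at 5.48 and 8.54 times its vehicle mean. All 8 muscle markers were higher without overlap, beside 22.9% of all tested genes. The part of these cell types in the class I levels was not tested.

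Among the nonclassical genes, H2-T23 had the smallest p. It encodes Qa-1, the ligand of the NKG2A receptor on natural killer cells, and had 234 and 242 CPM after vehicle, against 196 and 167 after BML-260. The groups did not overlap, and the log2 fold change was -0.39 (SE 0.15, edgeR adjusted p = 0.438). It kept its sign in every alternative run, from -0.52 without BML-260 A to -0.28 without BML-260 B, and did not pass the threshold in any of them. H2-T22, recognised by some gamma delta T cells, lay at 278 and 269 CPM after vehicle, against 220 and 240 after BML-260, or -0.25 as a log2 fold change (SE 0.14).

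H2-Q4 had 219 and 227 CPM after vehicle, against 213 and 209 after BML-260. H2-Q7 and H2-Q6, which encode Qa-2, differed by 0.10 (SE 0.19) and 0.09 (SE 0.14) on the log2 scale, with levels of 202 to 270 and 107 to 128 CPM. H2-Q10, known as a secreted class I molecule of liver, was listed at 194 and 259 CPM after vehicle, against 163 and 254 after BML-260, and its log2 fold change of -0.12 (SE 0.27) turned to 0.15 without BML-260 A. Of the 44 members with any read, 22 had counts that were not whole, among them H2-K1, H2-D1 and every tested H2-Q gene. Such counts arise where reads are divided between genes that are alike or overlap, and they include Tap1, Tap2, Tapbp, Cd74 and Cd40 as well. Single values within the H2-Q and H2-T families are uncertain where reads were divided in this way. The H2-Q genes together summed to 740 and 884 CPM after vehicle, against 797 and 817 after BML-260.

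Peptide transport to class I was followed in Tap1, Tap2 and Tapbp. Tap1 and Tap2, the paired subunits of the transporter that brings peptides into the endoplasmic reticulum, differed on the log2 scale by -0.01 (SE 0.15) and -0.21 (SE 0.15). Tap1 stood at 98.6 and 111 CPM after vehicle, against 115 and 93.7 after BML-260, and Tap2 at 128, 147, 110 and 128. Tapbp, or tapasin, which bridges the transporter and class I, stood at 281, 337, 286 and 302 CPM. All 3 genes overlapped between groups. Tap1 overlaps Psmb9 on the opposite strand, as B2m does Patl2, and H2-T22 and H2-T23 both overlap A930015D03Rik.

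Nlrc5, the class I coactivator, had 68.6 and 68.5 CPM after vehicle, against 74.4 and 69.0 after BML-260. On the log2 scale it differed by 0.06 (SE 0.11, edgeR adjusted p = 0.860), with a 95% confidence interval from -0.21 to 0.34. The 10 interferon response genes summed to 1051 and 985 CPM after vehicle, against 994 and 925 after BML-260, so BML-260 A lay inside the vehicle range and BML-260 B below it.

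Of the remaining members, 11 had no read in any library, among them 8 class I genes such as H2-M1, H2-M10.1 and H2-Q3. H2-M2, a nonclassical class I gene, had 53 reads in BML-260 A and 0 in each other library, or 2.55 CPM against an upper limit of 0.144 CPM or less. The other 8 untested members with reads had at most 8 in a library. The 8 tested members not yet given, which include H2-Ke6, H2-Q5, H2-K2 and H2-M9, had log2 fold changes from -0.39 to 0.31 and edgeR adjusted p of 0.493 or more.

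Among these 8, 3 less abundant class I genes are described here, chosen after their values were seen. H2-M3, which presents formylated peptides, had 14.2 and 14.3 CPM in vehicle A and B, 18.6 in BML-260 A but 10.3 in BML-260 B. H2-T24 had 47.4, 37.9, 47.1 and 29.9 CPM in the same order, and H2-T10 had 15.5, 11.3, 17.7 and 11.5. BML-260 A stood at 1.80, 1.57 and 1.54 times BML-260 B for the 3 genes. It stood at 0.855 to 0.962 times for H2-K1, H2-D1 and B2m and 0.641 times for H2-Q10. BML-260 A was also above BML-260 B for H2-Q7, H2-K2, Tap1, H2-Q5, H2-T23, H2-Q6, Nlrc5 and H2-Q4, at 1.02 to 1.25 times. For H2-T-ps it was 6.34 times, from 24.05 and 4 estimated reads. Tapbp, H2-T22, Tap2 and H2-M9 lay the other way, at 0.590 to 0.946 times. Leaving out BML-260 A gave H2-M3 a log2 fold change of -0.48, and leaving out BML-260 B gave 0.38.

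The balance of the classes therefore differed by library. Summed FPKM of class II was 14.7% and 19.3% of that of class I with vehicle, 20.6% in BML-260 A but 9.84% in BML-260 B. The treated libraries thus held both the highest and the lowest value. Summed class II CPM with BML-260 was 0.768 times that with vehicle, but 0.513 times without BML-260 A and 1.02 times without BML-260 B. For class I the ratio was 0.864, and 0.832 to 0.899 when any 1 library was left out.

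**Figure D4:**
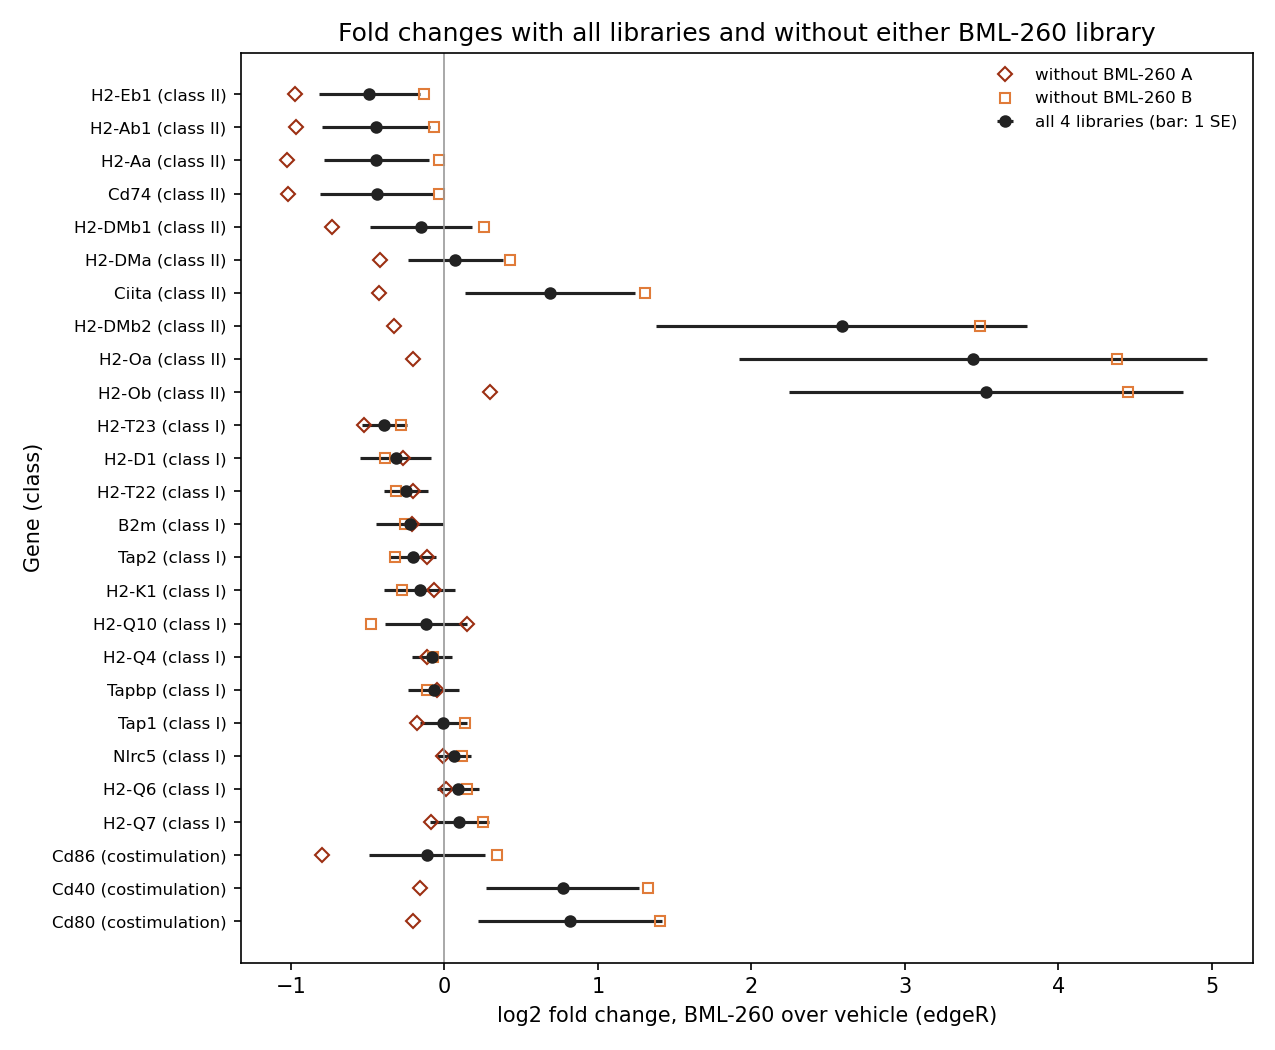
Log2 fold changes of BML-260 over vehicle for the 26 named members that were tested, with 1 SE (filled circles) and without either BML-260 library (open symbols). The open symbols of these class I genes lie between -0.52 and 0.25, whereas H2-Ob, H2-Oa and H2-DMb2 move from above 2.5 to between -0.33 and 0.29 without BML-260 A.

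A further list of 39 genes that act with the members in antigen processing, in class II regulation and in T cell recognition was followed beside them. Of these, 35 were tested, 0 were called by edgeR, and 2 were higher and 1 lower at p below 0.05 before adjustment, beside 7.45% and 3.61% of all tested genes. DESeq2 called 2, beside 2.6% of all tested genes, and both were chains of the interferon gamma receptor. Without overlap between groups, 7 of the 35 lay higher and 13 lower, beside 22.9% and 21.5% of all tested genes. Their median log2 fold change was -0.01. Ifngr2, which encodes the signalling chain, had 27.6 and 25.6 CPM after vehicle, against 46.0 and 39.3 after BML-260, or 0.68 as a log2 fold change (SE 0.14, edgeR adjusted p = 0.292, DESeq2 adjusted p = 0.0264).

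Ifngr1, the ligand-binding chain, had 191 and 178 CPM after vehicle, against 119 and 139 after BML-260, or -0.52 as a log2 fold change (SE 0.14, edgeR adjusted p = 0.360, DESeq2 adjusted p = 0.0408). The 2 chains lay in opposite directions in both treated libraries. Ifng itself had 0.144 to 0.259 CPM, close to the limit of 3 reads. Cd28, the T cell receptor for CD80 and CD86, had 0.712 and 1.47 CPM with vehicle, 5.63 in BML-260 A but 3.10 in BML-260 B, and Lgmn, an endosomal protease, had 103, 127, 267 and 138 CPM. Among those 13 were the inducible proteasome subunits Psmb8, Psmb9 and Psmb10, the proteasome activators Psme1 and Psme2 and the peptide trimming enzyme Erap1, 6 genes singled out after their values were seen. Their log2 fold changes were -0.28 to -0.10, with edgeR adjusted p of 0.465 or more. Of the chaperones and editors of class I loading in the list, Canx lay lower in both, Calr and Pdia3 overlapped between groups and Tapbpl lay higher in both BML-260 libraries.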

How the data were processed

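The 4 libraries were made from total RNA extracted with TRIzol, according to the labels. In 1 table the authors deposited expected counts per gene (estimated counts that need not be whole), FPKM, group means of both, log2 forms of those means, and a log2 fold change with p-value and adjusted p-value. HISAT2 2.1.0, RSEM 1.2.31 and DESeq2 1.10.1, with build GRCm38.p5, are listed in the submitters' processing notes. Their annotation, strand setting and filters are not given in the sources used here. Estimated counts of near-identical or overlapping genes depend on how shared reads were divided.

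Expected counts were rounded and low genes removed with filterByExpr. BML-260 was tested against vehicle, two-sided and without covariates, by the quasi-likelihood test of edgeR 4.0.16 in R 4.3.3, using TMM factors. Benjamini-Hochberg adjustment ran over 15643 genes, with a threshold of 0.05. Standard errors are the log2 fold change over the square root of F. CPM are TMM-scaled. Alternatives were DESeq2 1.42.0, limma-voom 3.58.1, other scaling and filters, leaving out each library, and the library letter as a replicate block. An exact permutation test of 2 libraries against 2 cannot go below p = 0.333. Intervals and limits cover counting error or library spread only. Positions and overlaps come from GENCODE vM21 (GRCm38), where all 55 identifiers matched.

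The members and lists were chosen with earlier results of these data known. Named were all class II and costimulatory genes, B2m, Nlrc5, Tap1, Tap2, Tapbp, H2-K1, H2-D1 and the 6 next class I genes by mean CPM. So were any member with an unadjusted p under 0.05 and the 4 companion genes with the smallest p. H2-M2, H2-M3, H2-T24, H2-T10 and the companion genes Psmb8, Psmb9, Psmb10, Psme1, Psme2 and Erap1 were added after their values were seen.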

Additional observations from a re-analysis of the deposited data

How the results depend on the processing

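Called genes numbered 1 higher and 0 lower in edgeR's test over all genes. DESeq2 called 328 higher and 79 lower, and edgeR without a low-count filter called 565 higher and 86 lower; there 1 member, H2-Ob, passed, and the class I median log2 fold change was 0.028. Leaving out 1 library gave 0 to 329 genes higher and 0 to 11 lower, the highest without vehicle B, with the lone library of a group assumed to vary like the other group. With the library letter as a replicate block, 0 genes were called higher; the deviations of same-letter libraries from their group means had a correlation of -0.011 over 12929 genes, so the letter was not taken to pair them. The cause of these differences was not tested. No other alternative called a member. Of 285 values for the 26 named genes, 19 changed sign, each of them on leaving out a library, in 14 genes. Their log2 fold changes then ranged from -0.22 to 0.068 (Tapbp), -0.089 to 0.27 (H2-Q7), -0.48 to 0.15 (H2-Q10), -0.035 to 0.20 (H2-Q6), -0.18 to 0.14 (Tap1), -0.0064 to 0.12 (Nlrc5), -0.42 to 0.43 (H2-DMa), -0.73 to 0.25 (H2-DMb1), -0.42 to 1.30 (Ciita), -0.33 to 3.49 (H2-DMb2), -0.20 to 5.10 (H2-Oa), -0.80 to 0.34 (Cd86), -0.16 to 1.33 (Cd40) and -0.20 to 1.41 (Cd80). The costimulation median ranged from -0.20 without BML-260 A to 1.33 without BML-260 B. On leaving out 1 library the class II median ranged from -0.58 to 0.34 and the class I median from -0.18 to 0.02, and without the low-count filter the class II median was 0.064. Deposited FPKM in place of CPM gave BML-260 to vehicle ratios of 0.746 for summed class II and 0.842 for class I. With 2 libraries a group, the 95% interval of a log2 fold change was wide even for abundant genes, from -0.90 to 0.27 for H2-D1.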

Other observations

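Cd74 was also set against each of the 10 macrophage markers within each library, a comparison chosen after the values were seen. The ratio of Cd74 to the marker in CPM was lower in both BML-260 libraries than in both vehicle libraries for 6 of the 10, and overlapped for the other 4 (Cd14, C1qa, C1qb and Mertk). Against Cd68, a lysosomal protein of macrophages, it was 10.9 and 10.7 after vehicle, against 4.65 and 5.11 after BML-260. Against Adgre1, which encodes the macrophage surface protein F4/80, it was 10.5 and 12.6, against 6.21 and 6.83, and against the high-affinity antibody receptor gene Fcgr1 it was 35.7 and 37.7, against 16.8 and 18.7. The differences were smaller for Csf1r, at 2.80 and 3.34, against 2.37 and 2.09, and for Lyz2, at 0.801 and 1.04, against 0.598 and 0.736. For Mrc1 the ratio was 3.84 and 4.51, against 2.25 and 2.42. Of the 4 that overlapped, the ratio to Cd14 was 18.1 and 24.5 after vehicle, against 25.99 and 17.4 after BML-260. The ratio to Mertk was 16.03 and 26.01, against 24.3 and 12.5. For C1qa it was 1.96 and 2.34, against 2.15 and 1.64, and for C1qb 2.05 and 2.50, against 2.18 and 1.69. All 10 ratios share Cd74, so they are not separate observations, and no share over all tested genes was set beside the 6. CPM are not corrected for length, so only the difference of a ratio between libraries is read, and no test was run on it.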
